A study of Mus musculus with 8 samples.

Results

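At 402 places near the start or end of a gene, the transcription factor ZFP281 had a listed binding summit in every early lesion (EL) sphere culture, and no primary tumour (PT) sphere culture had one listed there. These regions are the subject here. They were chosen from the binding lists of 6 chromatin immunoprecipitation libraries, 3 per group, in which each line is a summit, the single base where the signal of a peak is highest. Summits lying at most 200 bp from each other, whichever list they came from, were joined into 19317 regions, of which 5518 lay within 1 kb of the start or end of a protein-coding gene (mm10 coordinates). A region belonged to the set when it was one of these 5518 and held a summit of all 3 EL lists and of none of the 3 PT lists, which was so for 7.29% of them. The 402 regions touched 441 of 21887 protein-coding genes (2.01%). Both percentages come from the rule that chose the set, so they describe it and test nothing.

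All samples came from the MMTV-HER2/Neu mouse on the FvB background, in which the mouse mammary tumour virus promoter drives the oncogene mainly in mammary epithelium. EL spheres were grown from glands of mice aged 14 to 18 weeks with no palpable tumour, and PT spheres from tumours of mice older than 20 weeks, in each case by 7 days of culture in mammosphere medium on low-adhesion plates. The tissue of the EL samples is labelled mammary lung and that of the PT samples breast tumor, with breast cancer cells as the cell type of both. The 3 libraries of a group are described as biological replicates, without the number of animals behind each, and an input library per group was not analysed here. Binding positions hold no RNA level, so cell type markers could not be used to check these labels. In such bulk cultures, binding in fewer cells and weaker binding in each cell cannot be told apart.

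ZFP281 is a zinc finger protein that contacts G-rich DNA. It is known from embryonic stem cells, where it takes part in leaving the pluripotent state, and from epithelial to mesenchymal transition (EMT), in which epithelial cells lose their junctions and take on a motile, matrix-producing state. A summit near a gene start marks the promoter, the stretch where transcription begins, and does not by itself say whether the gene is raised or lowered.

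The DNA under the leading promoter members is shown first, because the G-rich motif of ZFP281 was less frequent at members than at sites shared by both groups. Promoter sequences were taken from RefSeq (build GRCm38.p6, the mm10 assembly), as windows from 250 bp before to 50 bp after a tabled gene start. A tabled start can differ from the outer gene boundary, which is the start used for the positions further below. The Col5a1 summit, for example, lay 62 bp upstream of the tabled start and 18 bp upstream of the outer boundary. A member close to the outer boundary can thus lie outside every window. For the 10 highest ranked members with their middle EL summit inside such a window, up to 60 bases on each side of that summit are printed on the strand of the gene, 5′ to 3′. Capitals mark each GGGGAGGGG and each GGGGTGGGG, read on either strand, so that they also appear as CCCCTCCCC and CCCCACCCC.
Pros1: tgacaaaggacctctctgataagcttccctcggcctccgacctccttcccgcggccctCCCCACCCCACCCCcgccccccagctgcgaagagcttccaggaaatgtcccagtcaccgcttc
Col5a1: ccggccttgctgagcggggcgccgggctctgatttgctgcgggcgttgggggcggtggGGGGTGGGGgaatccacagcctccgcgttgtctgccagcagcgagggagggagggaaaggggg
Lrtm1: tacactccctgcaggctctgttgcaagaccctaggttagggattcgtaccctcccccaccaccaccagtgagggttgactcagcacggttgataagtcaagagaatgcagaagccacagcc
Fas: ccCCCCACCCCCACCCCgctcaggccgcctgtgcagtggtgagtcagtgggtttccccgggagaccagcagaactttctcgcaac
Irak1bp1: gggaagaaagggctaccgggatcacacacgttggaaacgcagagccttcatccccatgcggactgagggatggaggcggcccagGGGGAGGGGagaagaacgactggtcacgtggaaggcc
Col6a2: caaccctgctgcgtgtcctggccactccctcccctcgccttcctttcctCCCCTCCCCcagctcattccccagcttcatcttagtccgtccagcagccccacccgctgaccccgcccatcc
Slc25a4: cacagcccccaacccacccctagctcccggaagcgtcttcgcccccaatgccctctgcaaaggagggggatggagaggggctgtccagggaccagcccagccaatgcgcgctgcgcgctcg
Slc16a9: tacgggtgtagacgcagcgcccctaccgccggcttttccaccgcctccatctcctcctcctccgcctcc
Zfp212: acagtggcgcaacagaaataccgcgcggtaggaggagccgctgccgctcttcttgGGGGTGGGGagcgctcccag
C1ql3: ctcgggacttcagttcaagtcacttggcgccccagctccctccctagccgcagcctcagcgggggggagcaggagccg

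These stretches lie at chr16:62854122-62854242 (plus strand), chr2:27886303-27886423 (plus), chr14:29018014-29018134 (plus), chr19:34290409-34290493 (plus), chr9:82829676-82829796 (plus), chr10:76623462-76623582 (minus), chr8:46211098-46211218 (minus), chr10:70245026-70245094 (plus), chr6:47920523-47920597 (plus) and chr2:13011037-13011114 (minus). The form with A appeared in 2 of the 10, those of Irak1bp1 and Col6a2. The form with T appeared in 4, those of Pros1 (protein S, an anticoagulant and a ligand of the AXL family), Col5a1 (a fibrillar collagen chain), Fas (the death receptor) and Zfp212. The other 4 held neither. The form with T was added after these sequences had been read. For contrast, the 3 leading promoter regions bound in all 6 libraries follow, at chr10:77606402-77606522 (plus), chr9:44881410-44881530 (minus) and chr2:25255388-25255508 (minus).
Sumo3: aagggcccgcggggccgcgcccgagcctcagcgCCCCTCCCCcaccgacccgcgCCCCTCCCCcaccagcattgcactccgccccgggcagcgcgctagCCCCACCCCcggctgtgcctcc
Kmt2a: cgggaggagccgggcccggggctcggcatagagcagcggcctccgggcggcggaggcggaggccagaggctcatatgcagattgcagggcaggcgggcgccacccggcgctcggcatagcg
Ndor1: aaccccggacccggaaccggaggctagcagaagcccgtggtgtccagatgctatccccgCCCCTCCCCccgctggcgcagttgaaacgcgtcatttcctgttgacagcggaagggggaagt

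Sumo3, a small protein modifier, carried the form with A at 2 places and that with T at 1, Ndor1 carried the form with A once, and Kmt2a, a histone methyltransferase, had neither. Over whole windows the contrast was the following. A total of 96 promoter windows of 95 genes held a summit of a member, and 19 of them held GGGGAGGGG (19.8%, 95% Wilson interval 13.1% to 28.9%). The share was 51.0% in the 367 windows at regions of all 6 libraries (45.9% to 56.03%) and 7.42% in all 21263 promoter windows of protein-coding genes. GGGGTGGGG was found in 24 of the 96 member windows (17.4% to 34.5%), in 20.4% of the shared ones (16.6% to 24.9%) and in 6.65% of all. The member windows held the form with A less often than the shared windows, with intervals that do not overlap, while the intervals for the form with T overlapped. These intervals cover counting error alone.

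Base composition and rank moved with this contrast. The median GC content was 64.5% in member windows, 67.7% in shared ones and 56.3% in all, and the CpG ratio (observed over expected) was at least 0.6 in 68.8%, 91.3% and 47.7% of them. Among windows of 60% to 70% GC, GGGGAGGGG stood in 28.3% of 46 member windows (17.3% to 42.5%) and in 50.6% of 170 shared windows (43.1% to 58.01%), against 10.6% of all. Among regions of like rank, with a lowest EL percentile of 25 to 75, the shares were 25.8% of 62 (16.6% to 37.9%) and 39.0% of 123 (30.9% to 47.9%), and these intervals overlap. Both bands were chosen after seeing the data. Where a member window held the form with A, the match lay a median of 28 bp from the middle summit, and within 50 bp in 11 of 19.

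Other motifs were searched on both strands. GGGGCGGGG, the GC box of Sp and Klf factors, was found in 28.1% of member windows, 33.5% of shared windows and 15.4% of all. TGANTCA, the AP-1 motif, was in 6 of 96 member windows (6.25%, 2.90% to 13.0%), in 6 of 367 shared windows (1.63%, 0.751% to 3.52%) and in 6.99% of all, so that the interval of the members included the share of all promoters and that of the shared regions lay below it. GGAATG, the TEAD motif, was in 4.17% of member windows (1.63% to 10.2%), 8.72% of shared windows and 13.6% of all. The ETS motif CCGGAAG was in 15.6% of member windows, 15.8% of shared windows and 11.6% of all. The E-box CACGTG was in 9.38%, 11.7% and 7.84%. The CCAAT box, searched as these 5 letters, was in 32.3%, 35.7% and 38.2%. The TATA box, searched as TATAAA, was in 4.17%, 4.09% and 12.6%. The G-rich forms with A and T and the GC box differ in their middle base alone, so neighbouring matches can share G bases. A match is a run of letters and does not show that a factor binds there.

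**Figure D1:**
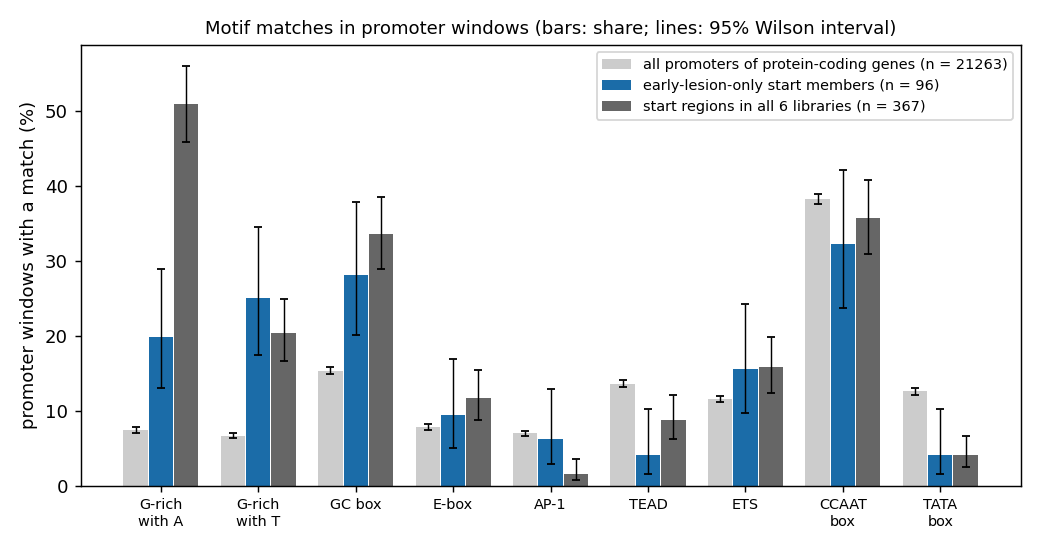
Share of promoter windows (y axis, %) with at least 1 match on either strand to each motif (x axis), for all promoters (light grey), windows at early-lesion-only regions (blue) and windows at regions of all 6 libraries (dark grey), with 95% Wilson intervals as lines. The G-rich motif with A stands at 19.8% in the blue bar and 51.0% in the dark grey one, while the form with T has overlapping intervals in the 2 classes.

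A comparison by library, over all summits of each list, gave no call. Of the promoter windows with a summit, those with GGGGAGGGG made up 37.1%, 31.8% and 41.3% in the EL lists (replicates 1 to 3). In the PT lists, in the same order, they made up 49.5%, 47.1% and 37.5%. The mean was 36.7% ± 4.76 for EL and 44.7% ± 6.34 for PT (SD, n = 3 each), and a two-sided exact permutation test gave p = 0.2 (0.2 after adjustment over the 2 library tests made). The groups overlapped, PT replicate 3 lying below EL replicate 3. With only the 2897 top-scoring summits of each list, the difference of EL from PT went from -8.0 to 1.20 percentage points (p = 0.2 in the same exact test).

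Ranks within each list show how strong the members were. The score of a summit was turned into its percentile, the share of summits of the same list with an equal or lower score. The median percentile of the 402 members was 50.5 in EL replicate 1, 70.7 in EL replicate 2 and 45.1 in EL replicate 3, so that they sat near the middle of their lists or, in EL replicate 2, above it. The 794 boundary regions bound in all 6 libraries had medians of 88.4, 94.1 and 85.9 in the same lists. Their PT medians were 66.8, 75.8 and 84.9, in the order of the replicates. Members at or above the percentile of 90 numbered 11, 28 and 7 in EL replicates 1, 2 and 3. The lowest of the 3 percentiles was at least 75 in 29 members, at least 50 in 114 and under 10 in 63, with a median of 34.0. It came from EL replicate 3 in 217 members, from EL replicate 1 in 170 and from EL replicate 2, the longest list, in 15.

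The order of members was loosely kept between libraries. Spearman's rank correlation of the percentiles over the 402 members was 0.585 for EL replicates 1 and 2, 0.476 for 1 and 3 and 0.595 for 2 and 3, against 0.862, 0.844 and 0.882 over the 794 shared regions. The points are regions chosen for having a summit in all 3 lists, and the members span a lower range of ranks. Every member held exactly 1 summit of each EL list. The summits of a member spanned a median of 79 bp (from 2 to 337 bp), and in 14 members at least 2 lists named the same base.

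**Figure D2:**
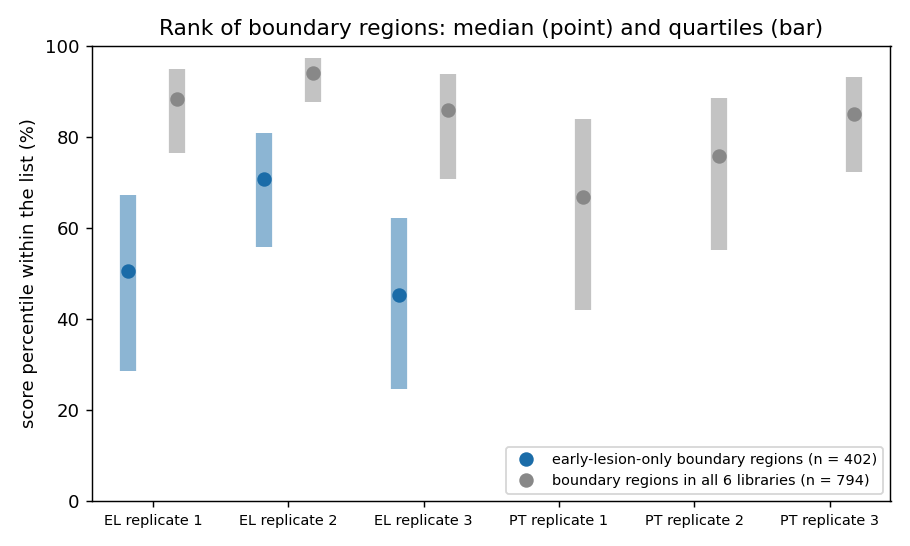
Score percentile within each list (y axis, %) for the 402 early-lesion-only boundary regions (blue) and the 794 boundary regions of all 6 libraries (grey), by library (x axis), with points for medians and bars from the lower to the upper quartile. The blue medians lie at 50.5, 70.7 and 45.1 and the grey medians of the same lists at 88.4, 94.1 and 85.9.

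List length bears on membership. The EL lists held 8588, 15770 and 7055 summits and the PT lists 2897, 4030 and 6033, each in the order of the replicates, and the depth behind them is unknown. Of 1862 boundary regions with a summit in all 3 EL lists, 402 (21.6%) had no PT summit, 318 had 1 PT list, 348 had 2 and 794 (42.6%) had all 3. When each list was cut to its 2897 top-scoring summits, 47 of the 402 members kept all 3 EL summits and 221 kept none, and the rule then found 79 regions at 89 genes. Without EL replicate 3 the rule gave 745 regions at 810 genes, without PT replicate 3 it gave 644 at 706, and without EL replicate 1 it gave 595 at 664. A rule with fewer lists asks for less.

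Genes of the extracellular matrix and of cell adhesion were among the leading members. Positions are given for the middle summit where the gene start is known, and otherwise for the nearest edge of the region. The start used for them is the outer boundary of the gene. The first member lay at Emilin1, a glycoprotein of elastic fibres, with percentiles of 94.3, 95.1 and 93.4 in EL replicates 1, 2 and 3 (chr5:30913247-30913308, 118 bp upstream of the gene start). It was near the top in all 3 lists. Cdh11, the mesenchymal cadherin 11, had 90.1, 93.8 and 89.2 (chr8:102785133-102785176, 317 bp from the upper gene boundary). Col5a1 had 93.3, 97.3 and 86.1 (chr2:27886303-27886363, 18 bp upstream of the start), with its highest rank in EL replicate 2. Mmp19, a matrix metalloproteinase, followed with 84.8, 94.2 and 81.7 (chr10:128790890-128790901, 9 bp from the lower boundary). Pcolce, which enhances the trimming of procollagen, had 80.6, 90.6 and 87.5 (chr5:137610810-137610833, 707 bp inside the gene). Mxra8, a matrix remodelling protein of the cell surface, had 79.1, 92.5 and 89.5 (chr4:155839725-155839772, 87 bp inside the gene).

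Other leading members serve other functions. Vamp8, a vesicle fusion protein, had percentiles of 96.6, 93.2 and 93.4 (chr6:72390192-72390240, 474 bp inside the gene), although a PT summit lay 414 bp away. Ms4a4d, a membrane protein of the MS4A family, had 92.1, 95.7 and 94.0 (chr19:11537579-11537593), 789 bp inside the gene, and its nearest PT summit was 374825 bp off. The region next to Shmt2, the mitochondrial serine hydroxymethyltransferase, had 97.7, 96.5 and 91.9 and lay at the end of that gene, 421 bp from it (chr10:127516650-127516702), within reach of Ndufa4l2 as well. En1, a homeobox factor of embryonic patterning, held 2 members, 363 bp upstream (86.3, 95.4 and 86.0, chr1:120602120-120602128) and 604 bp inside the gene (73.3, 65.6 and 74.8, chr1:120603051-120603155). Tgfbr1, the type I receptor of TGF-beta, had 79.1, 87.8 and 79.8 (chr4:47352943-47352947, 277 bp upstream), the summits of the 3 lists falling within 5 bp. The rest of the first 20 were Chid1, Gng8, Pros1, Lrp2bp, Fam111a, Tvp23a, Tmem119, Ccdc9b and Slc37a2, whose lowest percentiles ran from 88.7 at Chid1 to 79.3 at Slc37a2.

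**Figure D3:**
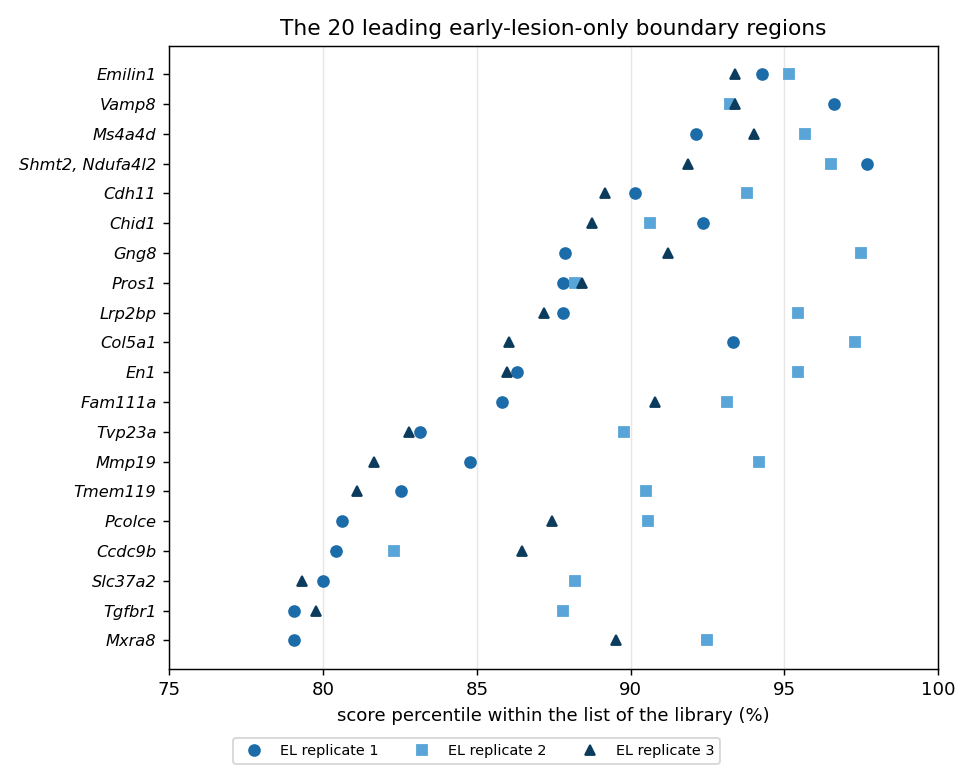
Score percentile within its list (x axis, %, from 75 to 100) of the 20 leading early-lesion-only boundary regions (y axis, named by the genes within 1 kb), with a circle, square and triangle for EL replicates 1, 2 and 3. The lowest of the 3 values falls from 93.4 at Emilin1 to 79.1 at Mxra8, and EL replicate 2 holds the highest value in most rows.

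Members lay at gene starts less often than shared regions did. The strand of a gene was read from the promoter table, which matched 17492 of the 21887 genes, so that start and end could be told apart for all boundaries of 306 members. A gene start was within 1 kb in 261 of the 306 (85.3%, 95% Wilson interval 80.9% to 88.8%), and 45 lay at gene ends alone (14.7%, 11.2% to 19.1%). Of 642 shared regions with known strands, 97.5% were at a start (96.0% to 98.5%) and 2.49% at an end alone (1.54% to 4.01%). Over all 4267 boundary regions of any library with known strands, these shares were 91.6% (90.8% to 92.4%) and 8.37% (7.57% to 9.24%). The overall shares thus lay between those of the 2 classes. The gap between members and shared regions was of like size at like rank, with a lowest EL percentile of 25 to 75. There, 85.6% of 180 members (79.7% to 89.9%) and 97.3% of 186 shared regions (93.9% to 98.8%) were at a start. Without PT replicate 3 the share at starts was 89.3%.

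The 45 regions at gene ends were by definition not within 1 kb of a start boundary used here. The promoter table still placed a start within 1 kb of 1 of them, that of Sdf4 (Tnfrsf4, at 905 bp). For the 45 regions the median distance to the nearest tabled start was 5936 bp, and 28 had none within 5 kb. They ranked about like the start members, with a median lowest percentile of 38.1 against 34.0. The leading ones were at the ends of Hspb7, a small heat shock protein of muscle (78.1, 95.3 and 93.2 in EL replicates 1, 2 and 3), Ccdc97 (76.3, 85.9 and 87.9), and Sh3d21 with Eva1b (75.9, 89.4 and 79.8). Atp6v0e2, a subunit of the vacuolar proton pump, had 85.9, 84.4 and 74.997. Npl, Rpp25 and Vipr1 came next, with lowest percentiles of 74.9, 73.6 and 72.1.

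The same share was taken over all boundary regions of each library, members or not. At a gene start lay 93.5%, 91.4% and 93.2% of those in the EL lists (replicates 1 to 3) and 96.0%, 94.9% and 95.02% of those in the PT lists. Every EL library was below every PT library, with means of 92.7% ± 1.11 and 95.3% ± 0.576 (SD, n = 3 each). The difference of EL from PT, -2.58 percentage points, had p = 0.1 in a two-sided exact permutation test, which is the smallest value possible with 3 against 3 libraries, and 0.2 after adjustment. At equal list lengths it was -0.0803 percentage points (p = 1 in the same exact test).

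Around the start, taken as the outer boundary of the gene, a larger share of members than of shared regions lay 500 bp or more inside. Other tabled starts within the gene were not used here. Rhoa, at 626 bp inside by this measure, lay 11 bp upstream of such a start. Pdgfra, at 716 bp inside, lay 213 bp upstream of another. Such cases were not counted in either class, so a place inside the gene need not lie beyond every promoter. The middle summit lay upstream of the start in 34.6% of 266 members near a start (29.1% to 40.5%) and in 41.3% of 640 shared regions (37.5% to 45.1%), and within 250 bp of it in 46.6% (40.7% to 52.6%) and 55.0% (51.1% to 58.8%). For both of these measures the intervals of the classes overlap. At 500 bp or more inside the gene lay 71 members (26.7%, 21.7% to 32.3%) and 114 shared regions (17.8%, 15.04% to 20.97%). Among regions of like rank these shares were 25.8% of 155 (19.6% to 33.2%) and 17.0% of 188 (12.3% to 23.04%), with overlapping intervals. Ms4a4d, Lrp2bp, Fam111a, Pcolce and Ccdc9b of the first 20 were of this kind, at 789, 869, 806, 707 and 952 bp inside the gene.

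**Figure D4:**
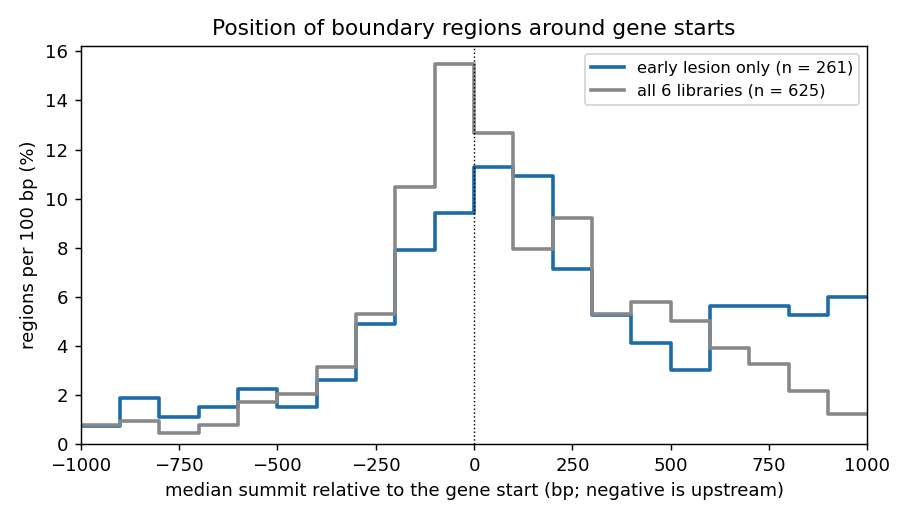
Share of regions per 100 bp (y axis, %) by the distance of the middle summit from the gene start, taken as the outer gene boundary (x axis, bp, negative upstream). Early-lesion-only regions are in blue (261 of 266 plotted) and regions of all 6 libraries in grey (625 of 640 plotted). The others lie beyond the axis. The grey line is highest just upstream of the start, and the blue line stays above it from 600 bp inside the gene to the edge.

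Most members touched 1 gene. A single gene lay within 1 kb of 359 members, 2 genes of 40 and 3 genes of 3. Starts of 2 genes on opposite strands were found at 12 members (2.99%, 1.72% to 5.14%) and at 60 shared regions (7.56%, 5.92% to 9.61%). The leading members of this kind were Tctex1d4 with Btbd19, Polr1a with Ptcd3, and Fbxo44 with Fbxo2. Genes with 2 member regions were En1, Dtx3, Pcdh7 and Shkbp1, and the neighbours Senp3, Tnfsf13 and Tnfsfm13, which share both regions.

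Some members had a PT summit nearby, outside the joining distance. A PT summit lay within 1 kb of 39 members (9.70%, 7.18% to 13.0%), within 5 kb of 79 (19.7%, 16.1% to 23.8%) and within 50 kb of 217 (54.0%), at a median of 38718 bp. With joining at 50 bp the share within 5 kb was 41.5%, and without PT replicate 3 it was 13.2%. Of the 441 genes, 64 had another boundary region with a PT summit, and 323 (73.2%) had no PT summit in the gene or within 1 kb of it. The rule already asks for a region without PT summits, and the PT lists are short. The same share over all genes was not counted, so the 73.2% does not set these genes apart. For 224 of the 441 genes the member was the sole region of any library there. Emilin1, Vamp8, Snai1 and Pdgfra were among the 64, so at least 1 PT list had a summit at a boundary of these genes. Emilin1, Vamp8 and Axl each had 1 region of all 3 PT lists in the gene or within 1 kb of it. The same held for Ror1, Csf1, Nf1, Fzd2, Pcdh1, Myh10 and Anxa2, among others. Vim, Col5a1, Col6a2, Col1a1, Col1a2, Cdh11, Itga5, Zeb2, Smo, Gli2 and Tgfbr1 had no PT summit in or near the gene. Both sets of genes are picked examples. Just beyond the joining distance were Brwd1, Fbxo44 with Fbxo2, and Nf1, with a PT summit at 202, 221 and 227 bp, and just within it Slc39a5, Ddx3x and Ogfr, at 196, 194 and 188 bp. At the other limit, Strn, Sdf4 and Prdx6 lay 993, 990 and 986 bp from a boundary, and Pdcd4, Vat1 and Rhob were left out at 1001, 1008 and 1018 bp.

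Genes of the mesenchymal state made up the list with the largest share at members among those of at least 20 genes. Among shorter lists, that of fibroblast markers had a larger share, 4 of 10 (40%). Col1a1 and Pdgfra are on both lists. The 39 lists used held 3205 genes, among them 91 of the 441 genes at members, and they were drawn up with earlier results of these data known. Of 36 EMT and mesenchymal genes, 10 lay at members (27.8%, against 2.01% of all genes) and 1 at a region of all 6 libraries (against 4.13% of all genes). Their median lowest percentile was 48.7, against 34.0 over all members. The count was 4 at equal list lengths (Cdh11, Col5a1, Itga5 and Zeb1). It was 6 with scores of at least 10 (Cdh11, Col5a1, Itga5, Snai1, Twist1 and Zeb1). With joining at 50 bp it was 5 (Axl, Cdh11, Col1a1, Pdgfra and Zeb1). Zeb1 and Twist1 are none of the 10, so these counts hold in part other genes. With any 1 library left out the count was 10 to 13. The list was chosen knowing of EL summits at some of these genes, so the count is not independent evidence.

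The 10 genes were Cdh11, Col5a1, Itga5, Snai1, Vim, Axl, Col1a1, Pdgfra, Zeb2 and Mmp2. Itga5, the integrin alpha chain that binds fibronectin, had percentiles of 87.4, 85.0 and 70.5 in EL replicates 1, 2 and 3 (chr15:103366642-103366716, 92 bp inside the gene). Snai1, a zinc finger repressor of Cdh1, had 72.3, 73.3 and 64.2 (chr2:167538323-167538463, 131 bp inside), with a PT summit at 4949 bp. Vim, which encodes the mesenchymal intermediate filament vimentin, had 48.8, 75.7 and 78.1 (chr2:13574110-13574165, 147 bp upstream). Axl, a receptor tyrosine kinase that binds Gas6, had 48.6, 82.0 and 72.1 (chr7:25788592-25788641, 302 bp inside). Both were lower in EL replicate 1 than in the other lists. Zeb2, an EMT repressor, was weak, at 6.15, 73.6 and 22.5 (chr2:45117138-45117271, 260 bp inside), and so was the gelatinase gene Mmp2, at 3.25, 25.8 and 38.1, with a summit range that spans the gene boundary.

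Collagen genes were represented by fibrillar and beaded chains. Of 44 collagen genes, 4 lay at members (9.09%, against 2.01% of all genes) and none at a region of all 6 libraries. Besides Col5a1 these were Col6a2, with 63.5, 84.1 and 69.1 (chr10:76623494-76623580), Col1a1, with 68.8, 89.2 and 38.5 (chr11:94936858-94936907), and Col1a2, with 38.04, 84.5 and 73.1 (chr6:4505502-4505532, 92 bp upstream). The type I chains, which form the main fibre of connective tissue, were thus each weak in a different EL list. At equal list lengths Col5a1 alone was left, and the count was 2 with scores of at least 10 and with joining at 50 bp. Of 70 matrix glycoproteins and matrix-modifying enzymes, 6 lay at members (8.57%) and 3 at shared regions. Emilin1 and Pcolce led them, followed by the proteoglycan gene Dcn, with 48.6, 88.4 and 75.6 (chr10:97479488-97479594), and by Fbn2, Sdc3 and Mmp2, with lowest percentiles of 45.5, 10.6 and 3.25. This count was 2 at equal list lengths and with scores of at least 10 (Emilin1 and Pcolce in both). With joining at 50 bp it was 3, with Serpinh1, which is none of the 6, added. It was 10 without EL replicate 1, 11 without EL replicate 3 and 9 without PT replicate 3.

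Markers of other cell types were counted alongside, since fibroblasts also make these proteins. Of 10 fibroblast markers 4 lay at members (40%), namely Dcn, Col1a1, Col1a2 and Pdgfra, and none at a shared region. The count was 0 at equal list lengths and 0 with scores of at least 10. No gene lay at a member among 5 adipocyte, 10 leukocyte, 6 endothelial, 9 luminal, 7 basal and 7 lung epithelial markers, or at a shared region. With 2.01% and 4.13% of all genes at members and at shared regions, lists this short are expected to hold few or none, so these zeros do not set them apart. The part of other cells in the EL spheres was not tested.

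Proteases and their inhibitors (141 genes of the Mmp, Adam, Adamts, Timp and Serpin families) had 7 genes at members and 2 at shared regions. The share at members was 4.96%, against 2.01% of all genes. Mmp19 led. Serpinf1, Mmp23 and Adamts4 had lowest percentiles of 61.3, 60.6 and 45.2. The count was 2 at equal list lengths, Mmp19 among them, and 11 without EL replicate 1.

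Signalling genes were counted by pathway. For reference, 2.01% of all genes lay at members and 4.13% at shared regions. Among 66 genes of TGF-beta and BMP signalling, a driver of EMT and of growth arrest, 5 lay at members (7.58%) and 6 at shared regions. Tgfbr1 stood well above the rest, which were Fstl3 and Gdf11 (lowest percentiles of 41.7 and 18.4), Acvr1b (6.17) and Bmp2 (1.63). Fstl3 binds activins, Gdf11 and Bmp2 are ligands, and Acvr1b is a type I receptor. The count was 1 at equal list lengths, 8 without EL replicate 1, 9 without EL replicate 3 and 11 without PT replicate 3. Of 44 Notch and Hedgehog genes, 5 lay at members (11.4%) and 1 at a shared region, with 2 or more in 14 of 15 alternatives and none at equal list lengths. Dtx3 had 2 members, with 70.5, 81.0 and 88.4, and 52.6, 73.1 and 66.6. Smo, the signal transducer of Hedgehog, had 51.1, 60.9 and 54.2 (chr6:29735507-29735693, 65 bp inside the gene), and Gli2, a zinc finger factor at the end of that pathway, had 82.0, 73.5 and 46.7 (chr1:119053850-119054000, 489 bp inside). The Notch ligand gene Jag1 (lowest percentile 30.2) was reached at its end and the Notch inhibitor gene Numb (28.5) at its start.

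Receptor tyrosine kinases numbered 4 of 54 at members (7.41%, against 2.01% of all genes) and 3 at shared regions. The count was 2 with joining at 50 bp and 0 at equal list lengths, and with scores of at least 10 it was 1, Ptk7, which is none of the 4. After Axl came Pdgfra, the receptor of platelet-derived growth factor, with 35.6, 51.7 and 30.7 and a PT summit at 736 bp, and then Ddr2, a collagen receptor, with 28.5, 69.0 and 77.5, and Ror1, a Wnt receptor, with 11.1, 87.6 and 52.4. Axl, Ddr2 and Ror1 were lowest in EL replicate 1, and Pdgfra in EL replicate 3. Secreted growth factors had 4 of 78 (5.13%), namely Pros1, with the even ranks of 87.8, 88.2 and 88.4, and Angptl8, Csf1 and Mdk, with lowest percentiles of 66.5, 48.2 and 12.7. Wnt genes had 3 of 83 (3.61%), namely Fzd2, Tcf7l1 and Ror1, and RAS and ERK genes 2 of 59 (3.39%), Nf1 and Etv5, against 11 at shared regions. Nf1 encodes neurofibromin, which switches RAS off.

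Cell cycle and dormancy genes were found in both classes. Of 49 CDK inhibitor, cyclin and dormancy genes, 4 lay at members (8.16%, against 2.01% of all genes). At shared regions lay 10 (20.4%, against 4.13% of all genes). Cdkn2d, an inhibitor of CDK4 and CDK6, had 73.3, 82.0 and 75.6 (chr9:21290644-21290764, 712 bp inside the gene), even over the lists. Cdkn2a, which encodes p16 and p19ARF, had 74.1, 79.9 and 42.5, and Nr2f1, an orphan receptor associated with dormancy, had 18.4, 70.5 and 30.2 (chr13:78198709-78198784). Homeobox genes had 5 of 184 (2.72%), En1, Meis1, Tlx2, Zhx2 and Hoxa2, and nuclear receptors 2 of 41, Nr1d1 and Nr2f1. Klf6, Klf2 and Gli2 made up 3 of 47 genes of the Klf, Sp, Egr, Gli and Gata group. Cadherins and protocadherins had 4 of 103, Cdh11, Pcdh1, Pcdhgc5 and Pcdh7, and bHLH factors 1 of 95, Mesp1. Single genes stood for integrins (Itga5, of 21), one-carbon metabolism (Shmt2, of 28), pluripotency genes with ZFP281 itself (Klf2, of 25), G proteins (Gng8, of 66) and mitochondrial respiration (Ndufa4l2, of 186). Homeobox genes were near the 2.01% of all genes. The bHLH factors (1.05%), G proteins (1.52%) and mitochondrial respiration (0.538%) were below it. Counts this small do not set these families apart.

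Several lists with genes at shared regions had none at members. For reference, 4.13% of all genes lay at shared regions and 2.01% at members. Of 90 chromatin regulators 28 lay at a region of all 6 libraries (31.1%) and 0 at a member, with at most 3 under any of the 15 alternatives. The numbers were 8 and 0 of 78 forkhead, Sox and T-box genes (10.3% at shared regions) and 6 and 0 of 102 histone genes (5.88%). They were 4 and 0 of 74 axon guidance genes (5.41%) and 4 and 0 of 110 epithelial junction and keratin genes (3.64%). At 2.01% of all genes, lists of these lengths are expected to hold few genes at members, so the zeros do not set them apart. Zinc finger genes of the Zfp, Zbtb and Zscan families had 33 of 450 at shared regions and 7 at members. The actin and filament list had 9 of 72 at shared regions and 3 at members (Myh10, Vim and Rhoa). Solute carriers stood at 11 and 12 of 364 and ion channels at 2 and 4 of 240. Ribosomal protein genes had 3 of 80 in each class. Of all genes, 10 lay both at a member and at a shared region. No difference between the classes was tested, since the rule made them.

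**Figure D5:**
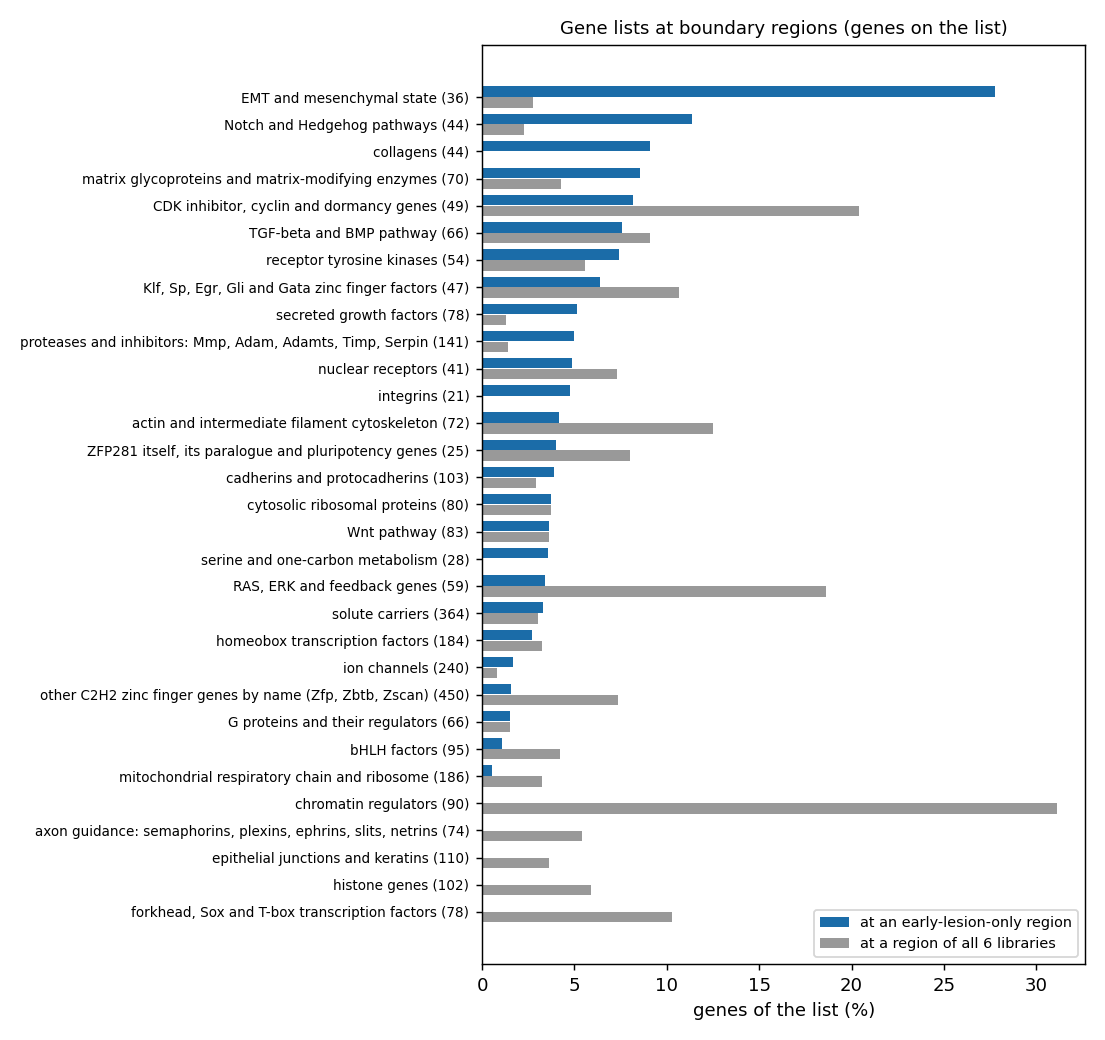
Share of the genes of each list (x axis, %) that lay within 1 kb of an early-lesion-only region (blue) or of a region of all 6 libraries (grey), for the lists described here of at least 20 genes (y axis, number of genes in brackets). EMT and mesenchymal genes stand at 27.8% in blue, and chromatin regulators at 31.1% in grey with no blue bar.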

How the data were processed

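Libraries were sequenced as 150 bp read pairs, per the labels' protocols, and handled on build mm10 with Bowtie2 2.3.4.3 and Picard among the tools, per the submitters' processing notes. Which peak caller was run, and how the inputs served it, is not given in the sources used here. Each deposited score was read as a −log10 q-value, because no list holds a score under 1.30, the −log10 of 0.05, the minima running from 1.30 (EL replicate 3) up to 1.55 (PT replicate 2); the score is the authors' and was used for ranks within a list and, in alternatives, for score limits and equal list lengths. Depth is unknown. Only chromosomes 1 to 19, X and Y were kept, at 1-based positions. The distance from the nearest edge of a region to either boundary of a RefSeq protein-coding gene (GRCm38.p6) had to be at most 1 kb. A region counted for every gene within reach. Members and lists were chosen with earlier results of these data known.

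Regions were ranked by the lowest of their 3 EL percentiles. Named were the 20 leading members, up to 5 genes per list, the 10 leading promoter sequences and the 3 regions on each side of the limits; the shared examples and further genes were chosen after their values were seen. Some results are not reported here. Libraries were compared with the exact permutation test, and shares carry 95% Wilson intervals. The steps were tested on simulated data. Alternatives were other joining distances, windows, score limits, equal list lengths and each library left out; midpoint distances and autosomes were added later. Computation used Python 3.11.15, pandas 2.3.3 and scipy 1.17.1. Entries absent from the promoter table were left out of start and motif counts.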

Additional observations from a re-analysis of the deposited data

How the results depend on the processing

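Counts and shares of the 402 regions were recomputed under 15 alternatives. The number of regions (and of genes) moved by over 1.5 times with joining at 50 bp, to 224 (252), at equal list lengths, to 79 (89), and with scores of at least 10, to 230 (258). With 1 library left out it ran from 426 to 745 regions (465 to 810 genes), all above the 402 and 441 since the rule is then looser. The share at a gene start stayed between 84.9% and 88.6% except without PT replicate 3 (85.4% to 89.3% over the libraries left out). The share with a PT summit within 5 kb was 41.5% with joining at 50 bp, 15.2% at equal list lengths, 15.4% and 11.3% with scores of at least 5 and at least 10, and 13.2% to 22.5% with a library left out. The share of member windows with GGGGAGGGG was 0% of 14 windows at equal list lengths, 29.2% with scores of at least 10, 44.8% with the shorter motif GGGAGGG, and 17.2% to 22.99% with a library left out. The cause of these shifts was not tested beyond the fewer summits that stricter lists hold.

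The per-library difference at gene starts ran from -2.97 to -1.93 percentage points with a library left out, and was -0.0803 (exact permutation p = 1) at equal list lengths. That of GGGGAGGGG, EL minus PT, ran from -11.6 to -5.52 and was reversed, at 1.20, with equal list lengths. Replicate numbers are shared between groups, but the deviations of same-numbered libraries did not move together (correlations 0.0619, -0.0331 and -0.0123). Such values cannot show whether same-numbered libraries were prepared together, so pairing remains unknown. With a replicate block the differences stayed at -2.58 and -8.0 (exact sign-flip test, p = 0.25 and 0.5, where 0.25 is the smallest possible). No test of 3 against 3 libraries could pass 0.05. The unknown depth limits every statement that a PT list lacks a summit.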

Other observations

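The following genes lie at members and were picked after the values were seen, so they are listed as values. Among genes of the plasminogen system, which dissolves clots and matrix, Plat, tissue plasminogen activator, had percentiles of 63.5, 78.0 and 74.8 in EL replicates 1, 2 and 3, S100a10, which docks plasminogen, had 64.4, 85.9 and 52.3, and its partner Anxa2 had 18.4, 70.5 and 20.9. Mrc2, a collagen uptake receptor, had 55.9, 86.1 and 48.2. Lrp1, the endocytic receptor that clears protease and inhibitor complexes, had 76.6, 93.0 and 73.7. In this gene or within 1 kb of it lay 20 regions of any library, 3 of them with a PT summit. The nearest PT summit was 1105 bp from the Lrp1 member. Anxa2 had 1 region of all 3 PT lists, while Plat, S100a10 and Mrc2 had no PT summit in or within 1 kb of the gene.

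No list of DNA repair, clock or interferon genes was counted, so the following are examples and not all such genes at members. DNA repair genes among them were Trp53bp1 (81.1, 91.6 and 66.0), Nthl1 (62.1, 82.7 and 81.1), Tdg (57.5, 69.5 and 49.2), Lig3 (39.0, 71.2 and 42.5), Brca2 (38.04, 47.9 and 6.95) and Fancg (27.0, 53.0 and 2.88). Brca2 and Lig3 had a PT summit at 404 and 251 bp. The Nthl1 region lay at gene ends, 944 bp from that of Nthl1 and 501 bp from that of Slc9a3r2. Examples from the circadian clock were Nr1d1 (73.3, 65.6 and 38.1), Tef (54.8, 69.2 and 31.8) and Cry1 (35.5, 56.3 and 3.00), all lowest in EL replicate 3. The Nr1d1 region lay 342 bp from the end of that gene. Examples of interferon and inflammation genes were Irf1 (63.5, 82.0 and 38.1), Ifnar1 (10.6, 40.0 and 6.17) and Icam1 (1.07, 33.9 and 39.1).

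Members were unevenly spread along chromosomes. They made up 40 of 343 boundary regions on chromosome 4 (11.7%) and 6 of 174 on chromosome 12 (3.45%), against 7.29% in all. In the stretch of up to 2 Mb with the most members, on chromosome 10 from 127190318 to 128919440, 9 of 45 boundary regions were members (20.0%). They lay at Dtx3 with Arhgef25, Dtx3 with Pip4k2c, Shmt2 with Ndufa4l2, Lrp1, Gpr182, Zc3h10 with Rpl41, Mmp19, Gdf11, and Bloc1s1 with Rdh5. On chromosome 7 from 25711932 to 27355958, 6 of 16 were members (37.5%). These lay at Ccdc97, Axl, Cyp2s1, Rab4b with Mia, Shkbp1 alone, and Shkbp1 with Sptbn4. These stretches were found by scanning all members and were not tested.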
